A study of Caenorhabditis elegans with 20 samples.

Results

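Total lysate RNA of 2 transgenic Caenorhabditis elegans strains was compared before any immunoprecipitation: worms with an AIN-2::GFP transgene (n = 3) and worms with a transgene in which the ain-2 promoter drives GFP by itself (n = 3). These 6 samples, of 20 in the series, were chosen by their labels, and no measured value entered the choice. The question was whether mRNA levels differ between the strain with the tagged protein and its GFP control. All worms were of mixed stages. The labels describe the AIN-2::GFP strain as line A, a single copy integrated line, and the control strain as an injection line, so each group is 1 line, and the construct, its copy number and the way each line was made cannot be told apart in the comparison. The labels name no age, agent or further allele for any group. Total RNA of wild-type N2 worms (n = 2) was fitted with both groups. The series text calls the replicates biological and independent.

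AIN-2 and its relative AIN-1 are the GW182-family proteins of the worm. Proteins of this family bind the Argonaute that carries a microRNA and recruit the deadenylation and decapping machinery, so that the targeted mRNA is translated less and decays. In the worm this pathway times the development of larvae, through targets such as hbl-1, a transcription factor gene controlled by let-7-family microRNAs. A strain with added AIN-2::GFP could therefore differ from its control in target mRNAs, in the silencing machinery itself or in genes carried along with the transgene, and the gene groups below follow these roles.

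The array held 23232 spotted features, 17461 of them with 1 gene in the probe table. Each deposited value is a background-subtracted intensity divided by its sample's mean, so that 1 sample mean is the average feature. Mean signal before that division was 533 ± 47.5 scanner units (SD, n = 3) in AIN-2::GFP and 437 ± 228 (SD, n = 3) in promoter GFP. After quantile normalization and log2, 12222 features of 11775 genes passed a filter on low signal, and log2 levels are given on this scale, where 0 is about 1 sample mean and -6.39 is the floor. A background limit was set for each sample from chemoreceptor genes, most of which are expressed in very few cells. Between 52.8% and 53.3% of gene features lay above it in AIN-2::GFP and between 45.6% and 54.5% in promoter GFP. On the log2 scale the limit lay at -3.63, -3.62 and -3.67 in AIN-2::GFP replicates 1 to 3. In promoter GFP it lay at -2.98, -3.13 and -3.79. A count of samples above the limit can therefore differ between the strains at like signal. Precision is limited by the number of arrays. In whole worms, fewer cells of a type and less RNA per cell cannot be told apart.

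Same-numbered samples of the 2 strains resembled each other more than replicates of 1 strain did. Spearman's rho across gene features, which share arrays and probes, was 0.938 to 0.970 between same-numbered samples, 0.916 to 0.929 within AIN-2::GFP and 0.875 to 0.903 within promoter GFP. Same-numbered samples carried opposite dyes. unc-122, a collagen-like gene of coelomocytes, shows what the pairs share. Its log2 level was -2.76, 0.73 and -2.84 in AIN-2::GFP replicates 1 to 3 and -2.72, 1.79 and -2.66 in promoter GFP. Replicate 2 was high in both strains, the groups overlapped, and the difference of -0.54 ± 1.65 (SE) did not pass the test.

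Markers of the tissues of a mixed-stage worm were present in both strains. All 6 oocyte markers (oma-1, oma-2, rme-2, cpg-1, cpg-2 and puf-5), all 3 muscle markers (myo-3, unc-54 and unc-15) and all 3 markers of moulting larvae were above the background limit in all 6 samples. So were 22 of 31 sperm markers, 5 of 6 germline markers and 4 of 5 hypodermal markers. Among intestinal markers 4 of 5 were, and elt-2, a GATA factor of the gut, was below the limit in all 6 samples. Among 5 markers of early embryos only end-3 was above it in all 6, and med-2 and pes-10 were below it in all 6.

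The total RNA of the 2 strains differed past the threshold at 1 gene. unc-119, which encodes a lipid-binding trafficking protein of neurons and cilia and is widely used to mark transformed worms, was 11.5-fold higher in promoter GFP worms than in AIN-2::GFP worms. No gene was higher in AIN-2::GFP worms at an adjusted p under 0.05 (limma, Benjamini-Hochberg). The 1 call is 0.00818% of the 12222 tested features. At an unadjusted p under 0.05, 355 features were higher in AIN-2::GFP (2.9% of those tested) and 138 were lower (1.13%), together 4.03%.

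In the deposited units unc-119 measured 0.627, 0.755 and 0.774 sample means in the 3 AIN-2::GFP samples and 9.69, 7.57 and 9.27 in the 3 promoter GFP samples. On the log2 scale this was -0.71, -0.33 and -0.45 against 3.30, 2.90 and 3.19. The 3 promoter GFP samples lay far above the 3 others, with no overlap, and all 6 were above the background limit. The fitted difference, AIN-2::GFP minus promoter GFP, was -3.52 ± 0.17 (SE; 95% interval -3.95 to -3.10; limma, adjusted p = 0.0150). Within the same-numbered pairs it was -4.01, -3.23 and -3.63. With the replicate number as a fixed block the adjusted p was 0.343 (limma), and with it as a random block 0.00254 (limma). An exact two-sided permutation test over the 6 samples gave p = 0.1, the smallest that 3 against 3 allows. Without any 1 of the 6 samples the difference stayed between -3.60 and -3.46, and the adjusted p rose to between 0.125 and 0.416 (limma).

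**Figure D1:**
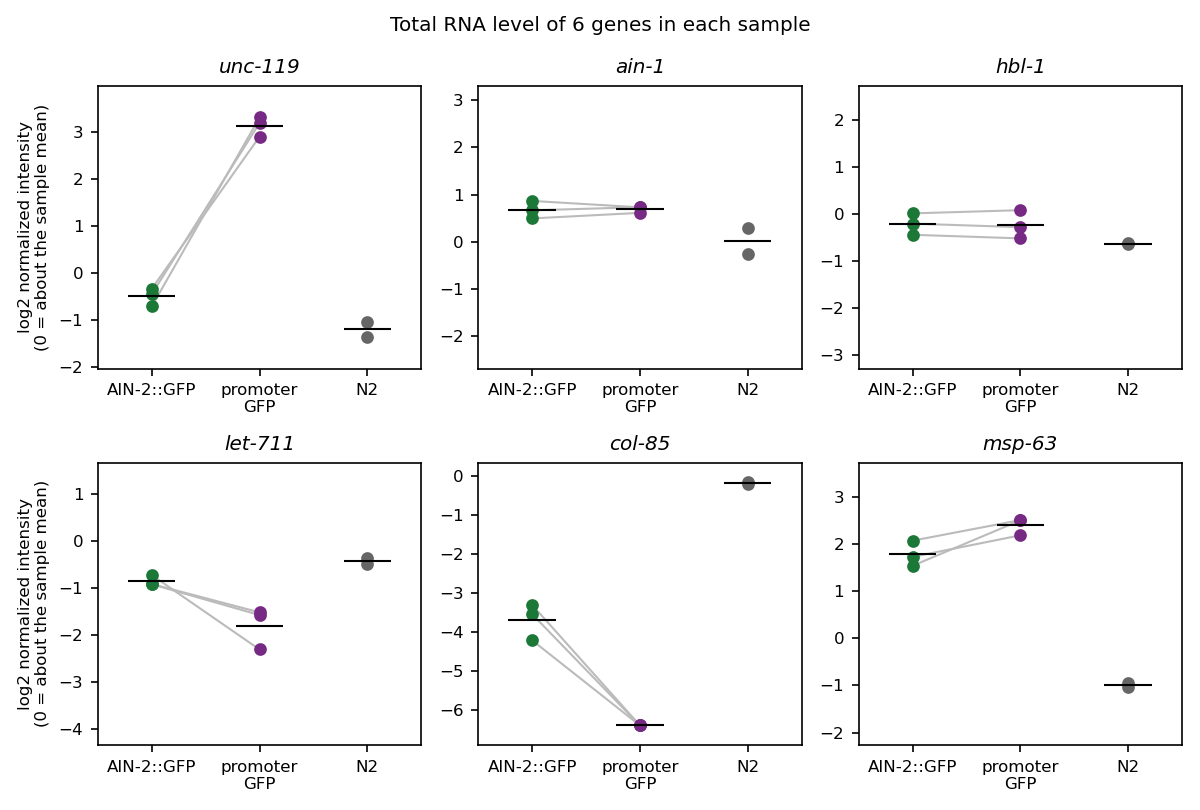
Log2 normalized intensity (vertical axis, spans differ between panels) of 6 genes in every total RNA sample: AIN-2::GFP (green), promoter GFP (purple) and N2 (grey). Points are samples, black bars group means, and grey lines join same-numbered samples. In the unc-119 panel the promoter GFP samples lie between 2.90 and 3.30, above all others, while the transgenic groups of ain-1 and hbl-1 overlap.

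Wild-type worms place the unc-119 difference. N2 total RNA measured 0.460 and 0.565 sample means, log2 -1.36 and -1.03, below all 6 transgenic samples. In the same fit promoter GFP exceeded N2 by 4.27 ± 0.18 (SE; limma, adjusted p = 0.00257). AIN-2::GFP exceeded N2 by 0.75 ± 0.18 (SE), which did not pass (limma, adjusted p = 0.0589). Both of these differences share the N2 samples. Over all genes the strains were farther from N2 than from each other in counts of calls, with 9.84% of tested features called between AIN-2::GFP and N2 and 19% between promoter GFP and N2, comparisons that rest on the same 2 N2 samples.

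The immunoprecipitates of the same 2 strains, which the total RNA comparison did not use, had the same order. Log2 levels of unc-119 there, on the scale of the 12 immunoprecipitates, were -1.95, -2.05 and -1.80 in the AIN-2::GFP IP and 1.93, 1.20 and 1.82 in the GFP IP. The groups did not overlap. The difference was -3.49 ± 0.68 (SE) and did not pass (limma, adjusted p = 0.0930), in a comparison with 0 called features and 10.4% at an unadjusted p under 0.05. Of the genes annotated within 5 places of unc-119, a set chosen after the values were seen, 8 were tested, and their differences ran from -0.51 (C44B9.2) to 0.50 (cut-6). None passed, and 0 of the 8 had an unadjusted p under 0.05 (limma).

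No other locus commonly used to mark or rescue transgenic worms passed the test. Of 12 such genes on the array 10 were tested, and unc-119 was the 1 call. rol-6, a cuticle collagen whose mutant form makes worms roll, measured 2.27, 1.69 and 0.88 in AIN-2::GFP against 2.14, 1.93 and 1.31 in promoter GFP, overlapping groups that differed by -0.17 ± 0.44 (SE). myo-2, a pharyngeal myosin, measured -0.19, -0.48 and -0.54 against -0.40, -0.64 and -0.73, a difference of 0.21 ± 0.21 (SE). Differences were 0.10 for lin-15A, -0.03 for lin-15B, -0.07 for lin-44, -0.24 for sur-5, -0.52 for dpy-5 and 0.41 for ttx-3, a homeobox gene of the AIY interneuron, whose groups did not overlap. dpy-20 and pha-1 lay under the low-signal filter.

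**Figure D2:**
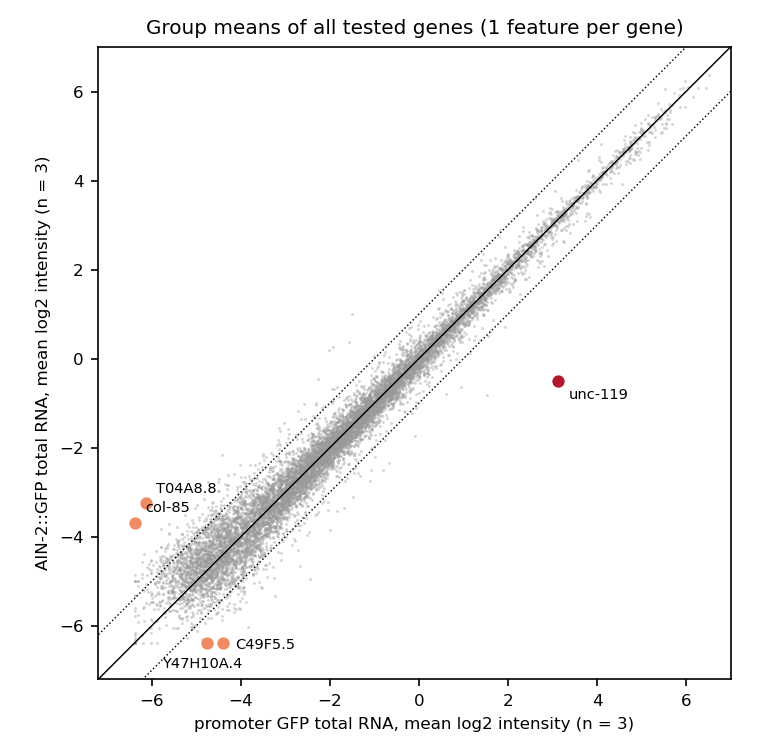
Mean log2 normalized intensity of each tested gene in promoter GFP (horizontal axis, n = 3) and AIN-2::GFP (vertical axis, n = 3) total RNA. The solid line marks equality and the dotted lines a log2 difference of 1 either way. unc-119 (red) passed the test, and the 4 orange genes passed with the replicate number as a random block but not without it.

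With the replicate number as a random block 5 features were called (0.0409% of those tested): unc-119 and 4 genes with no promoter GFP sample above the background limit. col-85, a cuticle collagen, measured -3.54, -3.31 and -4.21 in AIN-2::GFP and lay at the floor in all 3 promoter GFP samples, against -0.16 and -0.20 in N2. It was above the background limit in 2 AIN-2::GFP samples and in no promoter GFP sample. Its difference of 2.77 ± 0.26 (SE; limma, adjusted p = 0.210 without the block, 0.0375 with it) depends on where the floor lies. T04A8.8 measured -3.09, -3.22 and -3.46 in AIN-2::GFP, -6.39, -6.39 and -5.65 in promoter GFP, and -1.18 and -0.76 in N2. Against the background limit it was at least 1.03-fold higher in AIN-2::GFP (limma, adjusted p = 0.210, and 0.0403 with the random block). In both genes N2 was the highest group and promoter GFP the lowest. C49F5.5 and Y47H10A.4, with differences of -2.02 ± 0.20 and -1.71 ± 0.19 (SE), were below the background limit in all 6 transgenic samples, so no fold is given.

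No measured gene of the microRNA silencing machinery passed the test between the strains. ain-2, the gene that was tagged, was not analysed here. ain-1, its relative in the same complex, measured 0.66, 0.49 and 0.86 in AIN-2::GFP and 0.73, 0.61 and 0.73 in promoter GFP. These groups overlap, and the difference was -0.08 ± 0.21 (SE; 95% interval -0.59 to 0.43; limma, adjusted p = 1.00). None of 21 tested factors of the microRNA-induced silencing complex and of P-bodies, the granules where silenced mRNAs gather, passed the test. Their median difference was -0.02, against 0.01 over all tested features, and the 95% interval lay within 2-fold either way for 16 of the 21.

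Among Argonautes, alg-1 measured -3.01, -2.82 and -3.51 in AIN-2::GFP and -3.62, -3.31 and -3.93 in promoter GFP. The groups overlap at low signal, and the difference was 0.51 ± 0.28 (SE). alg-1 was above the background limit in 3 AIN-2::GFP samples and no promoter GFP sample, but the limits differ. Promoter GFP replicate 2 at -3.31 missed its limit of -3.13, while AIN-2::GFP replicate 3 at -3.51 passed its limit of -3.67. alg-2, the other microRNA Argonaute, measured 0.68, 0.28 and 0.51 against 0.87, 0.60 and 0.49, a difference of -0.17 ± 0.22 (SE). Of the microRNA processing enzymes, drsh-1 (Drosha) differed by -0.09, pash-1 (its partner) by 0.05 and dcr-1 (Dicer) by -0.13. nhl-2, a cofactor of the silencing complex, and cgh-1, a P-body helicase, differed by 0.01 and 0.00. The decapping subunit dcap-1 differed by -0.07 and its activator patr-1 by -0.02.

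let-711, the scaffold of the CCR4-NOT deadenylase that GW182 proteins recruit, was the member with the smallest p. It measured -0.92, -0.73 and -0.92 in AIN-2::GFP and -1.58, -2.31 and -1.52 in promoter GFP, with -0.49 and -0.36 in N2. The 3 AIN-2::GFP samples lay above the 3 promoter GFP samples, as in 4.94% of tested features, and N2 lay higher still. Its difference of 1.07 ± 0.21 (SE) did not pass (limma, adjusted p = 0.994). ccf-1, a catalytic subunit of the same deadenylase, measured -0.03, 0.23 and 0.70 against 0.37, 0.14 and 0.99, a difference of -0.15 ± 0.32 (SE). xrn-2, an exonuclease that degrades microRNAs, differed by 1.14 ± 0.53 (SE) at a signal above the background limit in 1 of 6 samples.

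Described microRNA targets did not differ between the strains past the threshold. Of 13 on the array 11 were tested, none passed at the adjusted or the unadjusted threshold of 0.05 (limma), and the median difference was 0.01. Within the pairs the median was 0.03, 0.00 and 0.08. The 95% interval stayed within 2-fold either way for 7 of the 11 genes.

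hbl-1 measured -0.20, 0.02 and -0.44 in AIN-2::GFP and -0.28, 0.08 and -0.51 in promoter GFP. Each pair lay within 0.1 on the log2 scale, the replicates of each strain spread more widely than that, and the difference was 0.01 ± 0.24 (SE; 95% interval -0.59 to 0.61). let-60, the worm's Ras gene and a let-7-family target, measured 2.99, 3.05 and 3.04 against 2.98, 2.97 and 2.94, a difference of 0.06 ± 0.16 (SE; 95% interval -0.33 to 0.44). cdc-25.2, a cell cycle phosphatase, measured 3.21, 3.15 and 3.27 against 3.24, 3.17 and 3.31, a difference of -0.03 ± 0.16 (SE). These 3 genes lay above the background limit in every sample. The groups of hbl-1 and cdc-25.2 overlap, and those of let-60 touch without overlap at 2.98 and 2.99.

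egl-1, a cell death activator, differed by 0.09, pha-4, the pharynx FoxA factor, by -0.02, die-1, a zinc-finger factor, by 0.00, and mef-2, a muscle transcription factor, by 0.14. nhr-25, a nuclear receptor of moulting, differed by -0.25 ± 0.36 (SE). pop-1, the TCF factor of Wnt signalling, measured -2.31, -2.42 and -1.63 against -1.59, -1.71 and -1.47, overlapping groups with a difference of -0.61 ± 0.28 (SE; 95% interval -1.31 to 0.08). vav-1, a guanine exchange factor, differed by 1.63 ± 0.96 (SE), a value set by promoter GFP replicate 2, which lay at the floor while the other 5 samples ran from -3.08 to -2.37.

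Genes of RNA interference and transgene silencing, which can act on repeated transgenes, gave no call among 28 tested and a median of -0.05, with 6 higher in AIN-2::GFP in all 3 pairs (21.4%, against 17.2% of all tested features) and 9 lower (32.1%, against 19.1%). At an unadjusted p under 0.05 (limma), 3 were higher in AIN-2::GFP (10.7%, against 2.9% of all features). None was lower, against 1.13% of all features. The 3 were picked by their p from a list with 18 genes below 0 and 10 above. drh-1, a Dicer-related helicase, ran from -3.45 to -2.85 in AIN-2::GFP and from -4.11 to -3.43 in promoter GFP, a difference of 0.92 ± 0.31 (SE). eri-5, a partner of Dicer in endogenous RNAi, differed by 0.98 ± 0.38 (SE) and set-25, a histone H3 methyltransferase, by 0.63 ± 0.23 (SE). Each of the 3 lay below the background limit in at least 1 promoter GFP sample, and each had limma adjusted p = 1.00. Next to ain-2 in the genome, 5 of 7 genes on the array were tested with no call, among them rpl-4, a ribosomal protein gene, at 0.14 ± 0.20 (SE), unc-57, an endophilin gene, at 0.79 ± 0.65 (SE) and ptps-1 at -0.43 ± 0.71 (SE).

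**Figure D3:**
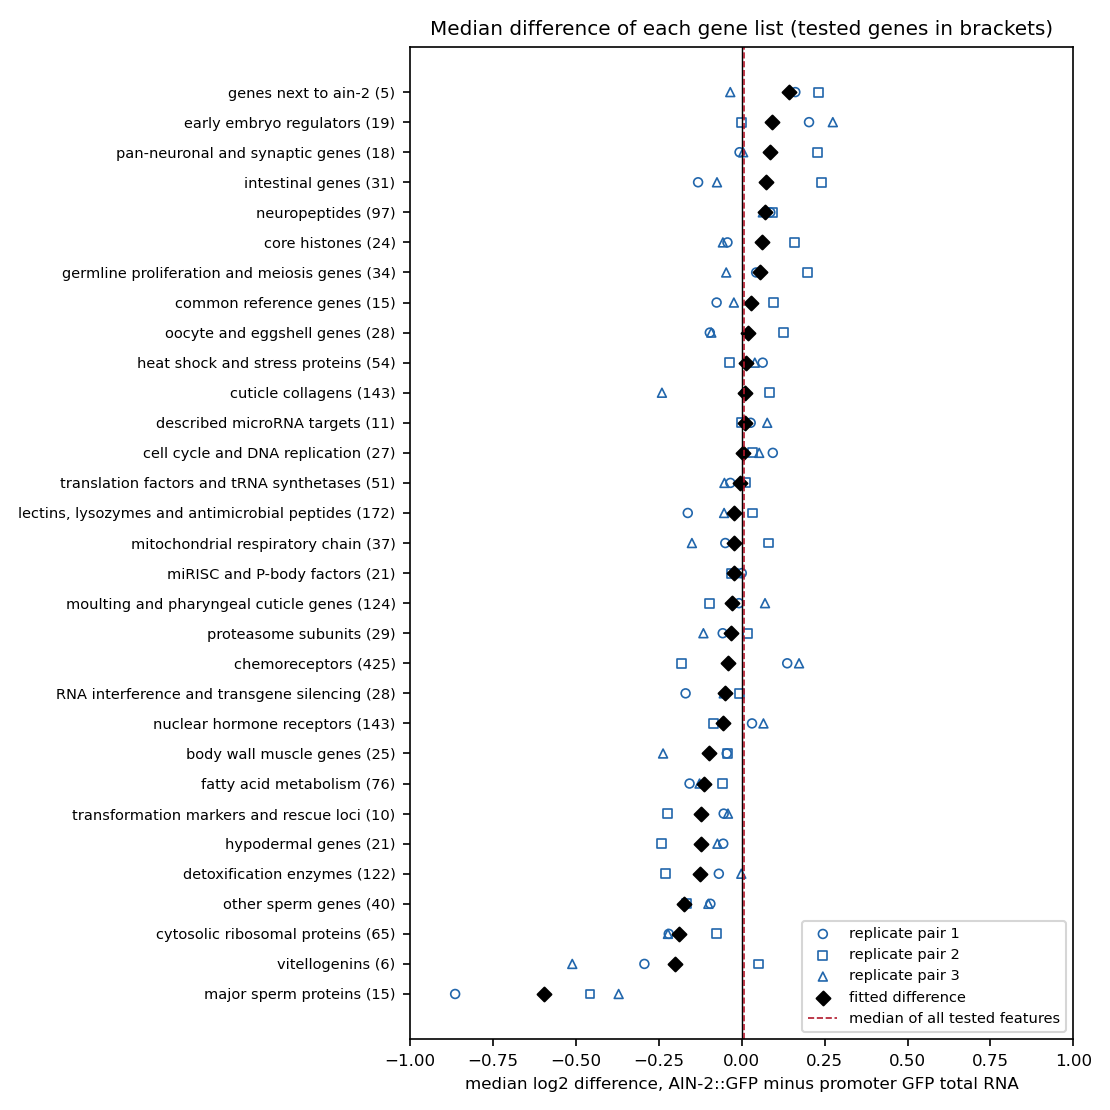
Median log2 difference, AIN-2::GFP minus promoter GFP, of each of 31 gene lists: the fitted difference (black diamonds) and the difference within each same-numbered pair (open blue symbols). The dashed line is the median of all tested features, 0.01. Medians of 30 lists lie within 0.25 of 0, and that of the major sperm proteins is -0.60.

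Over the 31 gene lists, which hold 1881 tested genes, unc-119 was the single call, as a transformation marker and as a neuronal gene. List medians ran from -0.60 to 0.14, and all but that of the major sperm proteins lay within 0.25 of 0. The list medians are descriptions with no test.

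Major sperm protein genes, which encode the abundant cytoskeletal protein of sperm, were the list farthest from 0. Of 15 genes 14 had a fitted difference below 0, the range was -0.76 to 0.24, and 13 were lower in AIN-2::GFP in all 3 pairs, against 19.1% of all tested features. The medians within the pairs were -0.86, -0.46 and -0.37. None passed the test (limma), and 1 was lower at an unadjusted p under 0.05 (6.67%, against 1.13% of all features). These genes are near-identical copies whose probes can take up each other's signal, so they are not independent measurements.

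msp-63 measured 1.54, 1.73 and 2.07 in AIN-2::GFP and 2.51, 2.19 and 2.51 in promoter GFP, with -0.95 and -1.04 in N2. Its groups did not overlap, and the difference was -0.60 ± 0.22 (SE; limma, adjusted p = 1.00). msp-10 measured 2.32, 2.38 and 3.76 against 3.15, 3.02 and 3.99, with 0.01 and -0.10 in N2. Replicate 3 was the highest of both strains, the groups overlapped, and the difference was -0.59 ± 0.51 (SE). Both transgenic strains lay above N2 in these 2 genes.

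**Figure D4:**
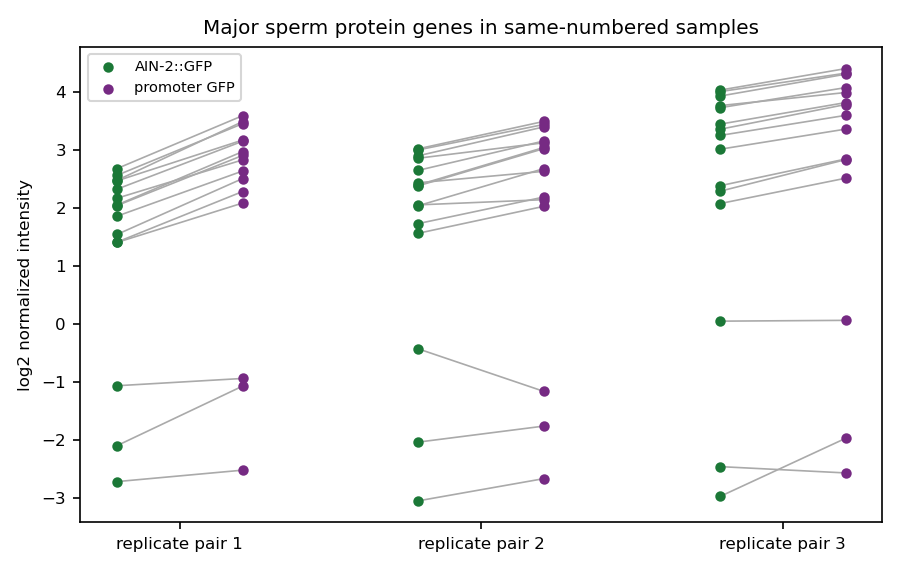
Log2 normalized intensity of the 15 major sperm protein genes in AIN-2::GFP (green) and promoter GFP (purple) total RNA, with grey lines joining the same gene in same-numbered samples. In 13 genes the AIN-2::GFP point is the lower one in all 3 pairs, and replicate 3 of both strains is high for most of them.

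Other genes of sperm were closer to 0, with a median of -0.18 over 40 tested of 58 and 13 lower in all 3 pairs (32.5%, against 19.1% of all features). nspd-1 and nspd-2, members of a nematode-specific family expressed in sperm cells, differed by -0.72 ± 0.29 and -0.56 ± 0.24 (SE), and gsp-4, a sperm phosphatase, by -0.24 ± 0.19 (SE). The summed level of the sperm markers ran from 60.4 to 137 sample means in AIN-2::GFP and from 100.4 to 175 in promoter GFP, ranges that overlap. Its part in the values of single genes was not tested.

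Oocyte genes were the most tightly bounded tissue list. None of 28 tested passed, the median difference was 0.02, and the 95% interval lay within 2-fold either way for 27. oma-1, a maternal regulator of oocyte maturation, measured 1.94, 1.83 and 2.33 in AIN-2::GFP and 1.93, 1.82 and 2.33 in promoter GFP, a difference of 0.03 ± 0.25 (SE). The samples of each pair were closer to each other than the replicates of either strain. rme-2, the yolk receptor, differed by 0.05 and cpg-2, an eggshell proteoglycan, by 0.14.

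Germline genes of proliferation and meiosis had a median of 0.05 over 34 tested, with no call and 3 at an unadjusted p under 0.05, all higher in AIN-2::GFP (8.82%, against 2.9% of all features). glp-1, the Notch receptor of the germline stem cells, measured -0.80, -1.05 and -0.84 against -1.42, -1.88 and -1.25, groups that do not overlap, with a difference of 0.70 ± 0.23 (SE; limma, adjusted p = 1.00). fbf-1, a PUF repressor of the stem cells, differed by 0.71 ± 0.28 (SE), while a dimmer probe of it gave -0.51 ± 0.46 (SE). nos-2, a nanos homologue, differed by 1.23 ± 0.40 (SE) and was above the background limit in 1 promoter GFP sample. gld-1, the translational repressor of meiotic germ cells, differed by 0.25, and him-3, a chromosome axis protein, by 0.02.

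The 6 vitellogenins, yolk proteins made in the adult intestine, had a median of -0.20, and none passed. vit-6 measured 5.69, 5.83 and 5.69 in AIN-2::GFP and 5.54, 4.85 and 5.69 in promoter GFP, a difference of 0.51 ± 0.21 (SE), and the other 5 lay between -0.51 (vit-1) and -0.15 (vit-4). A dimmer probe of vit-4 gave 1.70 ± 0.65 (SE), from -0.42, -0.56 and -2.58 against -2.58, -2.62 and -3.26, and none of its probes passed. Early embryo regulators had a median of 0.09 over 19 tested, with no call and none at an unadjusted p under 0.05 (limma). Embryonic factors named by the smallest p were pal-1, a homeobox gene, at 0.59 ± 0.33 (SE) and elt-1, an epidermal GATA factor, at -0.30 ± 0.17 (SE).

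Somatic tissue genes gave no call beside unc-119. Of 18 tested pan-neuronal and synaptic genes the median was 0.09. snb-1, synaptobrevin of the synaptic vesicle, measured 3.31, 3.26 and 3.53 against 3.40, 3.29 and 3.52, a difference of -0.03 ± 0.18 (SE). A dimmer probe of snb-1 gave 0.88 ± 0.27 (SE), from -0.88, -0.48 and -1.31 against -1.96, -1.66 and -1.40, without overlap (limma, adjusted p = 1.00). egl-21, which processes neuropeptides, differed by 0.01 ± 0.21 (SE). ric-4, the SNAP-25 of the synapse, differed by 1.42 ± 0.47 (SE) with no promoter GFP sample above the background limit. Neuropeptide genes had a median of 0.07 over 97 and a range of -0.81 to 1.53. At an unadjusted p under 0.05 (limma), 4 were higher (4.12%, against 2.9% of all features) and 2 lower (2.06%, against 1.13%). flp-10 and nlp-39 differed by 1.47 ± 0.37 and 0.84 ± 0.23 (SE).

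Body wall muscle genes had a median of -0.10 over 25 and 3 at an unadjusted p under 0.05 (limma), all lower in AIN-2::GFP (12%, against 1.13% of all features). unc-27, a troponin I, measured 1.45, 1.70 and 1.23 against 2.35, 2.66 and 1.81, groups that do not overlap, with a difference of -0.88 ± 0.30 (SE; limma, adjusted p = 1.00). pat-6, the parvin of muscle attachments, differed by -0.54 ± 0.19 (SE), and mlc-1, a myosin light chain, by -0.86 ± 0.30 (SE) near background. Of the 25, 18 lay below 0 and 7 above. In all 3 pairs 7 were lower (28%, against 19.1% of all features) and 1 higher (4%, against 17.2%). Among the 3 muscle markers, unc-54 and myo-3 differed by -0.05 ± 0.19 and 0.01 ± 0.34 (SE), and unc-15 differed by -0.45.

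Cuticle collagens, which form the worm's outer coat, held members far from 0 in both directions. Of 143 tested 13 were higher and 4 lower at an unadjusted p under 0.05 (limma), shares of 9.09% and 2.80% against 2.9% and 1.13% of all features. The range was -2.04 to 2.77 and the median 0.01. Within the pairs more lay the other way, with 47 lower in all 3 pairs (32.9%, against 19.1% of all features) and 26 higher (18.2%, against 17.2%), and a median of -0.24 in pair 3. col-159 measured 2.26, 1.98 and 1.52 in AIN-2::GFP and 1.11, 0.33 and 1.25 in promoter GFP, with 5.09 and 5.32 in N2. Its difference was 1.16 ± 0.29 (SE), and promoter GFP was again the group farthest below N2. col-119 differed by 1.52 ± 0.40 (SE), and col-146 lay the other way at -0.81 ± 0.23 (SE). col-19, a collagen of the adult cuticle, differed by 0.99 ± 0.33 (SE), and sqt-3, a collagen of all stages, by 0.14 ± 0.22 (SE).

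Moulting and pharyngeal cuticle genes had a median of -0.03 over 124. mlt-10 and nas-37, both needed to shed the old cuticle, differed by -0.28 and -0.10. Hypodermal genes had a median of -0.12 over 21, with bli-1 and bli-2, collagens of the adult cuticle, at -1.13 ± 0.38 and -1.24 ± 0.54 (SE) near background. Intestinal genes had a median of 0.07 over 31. There the cathepsin cpr-4 measured 2.28, 3.50 and 2.45 against 1.39, 2.07 and 1.96, groups without overlap that differed by 0.99 ± 0.41 (SE; limma, adjusted p = 1.00), while ges-1, the gut esterase, differed by -0.02 ± 0.19 (SE).

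Housekeeping groups gave no call. Cytosolic ribosomal protein genes had a median of -0.19, with 48 of 65 below 0 and 36 lower in AIN-2::GFP in all 3 pairs (55.4%, against 19.1% of all features), and medians within the pairs of -0.22, -0.08 and -0.22. None passed. At an unadjusted p under 0.05 (limma), 2 members were higher, a share of 3.08%, near the 2.9% of all features. These were rps-20 at 0.61 ± 0.18 and rpl-37A at 0.60 ± 0.22 (SE). Proteasome subunits had a median of -0.03 over 29, the respiratory chain -0.02 over 37, core histones 0.06 over 24 and cell cycle genes 0.00 over 27. atp-1, a subunit of the ATP synthase, differed by -0.53 ± 0.20 (SE). eef-1B.1, a subunit of translation elongation factor 1, differed by 1.10 ± 0.28 (SE), with N2 the highest group at 4.37 and 4.45.

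Among stress and metabolic genes, heat shock genes had a median of 0.01 over 54. At an unadjusted p under 0.05, 4 of them were higher in AIN-2::GFP (7.41%, against 2.9% of all features) and none lower. hsp-12.3, a small heat shock protein, measured -1.05, -0.10 and -0.89 against -2.34, -1.48 and -1.88, without overlap, and differed by 1.24 ± 0.37 (SE; limma, adjusted p = 1.00), and its relative hsp-12.6 differed by 1.06 ± 0.26 (SE). Detoxification enzymes had a median of -0.13. At an unadjusted p under 0.05 (limma), 2 of them were higher (1.64%, against 2.9% of all features) and 4 lower (3.28%, against 1.13%). Fatty acid metabolism genes had a median of -0.11 over 76. With the deposited mean scaling it was 0.01, and that scaling put the median of all features at 0.12. Of the 76, 28 were lower in all 3 pairs (36.8%, against 19.1% of all features). acox-1.2, an acyl-CoA oxidase, differed by -1.12 ± 0.37 (SE). A dimmer probe of it gave -0.43 ± 1.33 (SE), and another lay at the floor in every transgenic sample. Lectins, lysozymes and antimicrobial peptides had a median of -0.02 over 172, nuclear hormone receptors -0.06 over 143 and chemoreceptors -0.04 over 425.

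Genes with the smallest p but no call were mostly dim. ykt-6, a SNARE, sad-1, a presynaptic kinase, flp-7, a neuropeptide gene, and axl-1, an Axin-like gene, differed by 1.48 to 1.66 and lay below the background limit in all 6 samples. plp-1, a Pur-alpha homologue, was bright enough to measure. It lay at -0.70, -0.40 and -0.93 in AIN-2::GFP, at -1.98, -2.43 and -1.42 in promoter GFP and at 1.33 and 1.50 in N2, groups without overlap. Its difference of 1.42 ± 0.24 (SE) did not pass (limma, adjusted p = 0.994).

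The lower genes above background had smaller differences. rol-1 measured -1.78, -1.78 and -1.54 against -0.72, -1.07 and -0.84, a difference of -0.82 ± 0.19 (SE). aass-1, an enzyme of lysine breakdown, differed by -0.65 ± 0.18, cest-32 by -0.79 ± 0.20 and taf-11.2 by -0.58 ± 0.16 (SE), each with limma adjusted p = 1.00. clec-50, a C-type lectin gene, stood at 0.99 ± 0.21 (SE), while 2 further probes of it gave -0.12 and -0.75.

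Over all tested features the groups separated without overlap at 4.94% with AIN-2::GFP above and at 3.93% with promoter GFP above. Differences over 2-fold in all 3 pairs were found at 18 features higher in AIN-2::GFP (0.147%) and 19 lower (0.155%). Of the 18, promoter GFP was below the background limit in all 3 samples at 15, and no feature had all 6 samples above it. Among the 19 lower, AIN-2::GFP was below that limit in all 3 samples at 10. Of the 19, 6 had all 6 samples above it: unc-119, C33D3.5 at -1.45, srlf-30 at -1.17, cth-1, an enzyme of cysteine synthesis, at -1.27, pud-2.2 at -1.61 and sysm-1 at -1.70. These 6 were singled out after their values were seen, and unc-119 was the 1 that passed the test. C33D3.5 and cth-1 each have 2 features on the array, of which only 1 is among these 6. pud-2.2 measured -0.04, -0.33 and -1.56 in AIN-2::GFP and 1.54, 1.24 and 0.08 in promoter GFP, with like differences of -1.58, -1.57 and -1.64 within the pairs and a limma adjusted p of 1.00, or 0.260 with the random block.

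How small a difference could have been seen varied with signal. The median 95% interval reached 0.75 either side of the fitted difference over all tested features, and 0.58 over the 7169 features above the background limit in all 6 samples. Of those 7169, the interval excluded a difference over 2-fold in 74.9% and over 4-fold in 97.1%, and of all tested features in 48.9% and 81.0%. The fitted difference itself was under 2-fold in 95.3% of tested features. With the replicate number as a random block, the median interval over all tested features reached 0.52 either side. With that block 63.3% of the intervals excluded a difference over 2-fold. Of the 355 features higher at an unadjusted p under 0.05, 40.8% had promoter GFP below the background limit in all 3 samples, against 18.1% of tested features. Of the 138 lower, 47.8% had AIN-2::GFP below it in all 3 samples, against 15.1% of tested features.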

How the data were processed

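RNA of 20 samples was measured on spotted arrays. Per the labels' protocols, Trizol extracts went through 1 round of amplification before Cy3 or Cy5 labelling. The deposited intensity values were mean normalized by the authors, per the series text. Read from the values, each is a background-subtracted intensity divided by its sample's mean, since 100% of them became whole numbers (within 0.001) on multiplying by 1 constant per sample. The sources used here do not give the scanner, the image software, the background method or whether samples shared arrays. The number of identical samples was 0. Of the 17461 gene features, 17371 were matched to the RefSeq gene table (assembly WBcel235) by Entrez ID, and 5771 features have no gene listed. A gene with several features is given by the feature of highest mean signal.

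The linear values of the 8 total RNA samples were quantile normalized, floored at the 10th percentile of positive values (0.0120 sample means, 20.7% of values), put on a log2 scale and kept above the 30th percentile of mean signal. limma 3.58.1 (R 4.3.3) fitted 3 group means and the dye, with 4 residual degrees of freedom, two-sided tests and an adjusted p under 0.05. The 12 immunoprecipitates were fitted apart in the same way. The background limit is the median plus 2 MADs of chemoreceptor features in each sample. A bound written "at least" divides the brighter group's mean by that of the dimmer group after raising each dim sample to its limit. An interval is the moderated 95% interval.

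Replicate numbers pair the samples: the deviations of same-numbered samples from their group means correlated at 0.716, 0.589 and 0.780 over genes. Those of other numbers correlated below 0, which adds no support. Deviations within a group sum to 0, so positive same-numbered values pull the others below 0. The fit without the block remained the main one. Blocked values are printed where they change a call, for pud-2.2 and for the interval widths. Named genes were the 12 of smallest p in each direction with groups that do not overlap, ain-1, transformation markers, genes up to 5 places from ain-2, and up to 3 members with the smallest p of each of 31 lists, of which 35 genes are in several. Cell type markers and members of the first lists were also named. Members and lists were chosen with earlier results of these data known. ain-2 was not analysed here, so the planned check of its level was not made. The fit was also run on simulated data with no pairing of samples, a check of the direction and size of fitted differences only. That run cannot show how often calls are false in these paired data. Alternatives were other scalings, floors, filters, sample sets, blocks and left-out replicates. Python 3.11.15 made the tables and figures.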

Additional observations from a re-analysis of the deposited data

Results flagged for a closer look

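Features with no gene in the probe table lie outside the comparisons above. When all 23232 array features were fitted together, a setting chosen after seeing the data, 16262 were tested, 3668 of them with no gene listed. Of these, 25 were higher in AIN-2::GFP, by 2.15 to 4.61 on the log2 scale with a median of 3.30, and 3 were lower, by -4.55 to -3.62 (limma, adjusted p under 0.05). They are flagged because they are outside the features with a gene. The same fit called 32 features in all (0.197% of the 16262 tested). Of these 4 were gene features, unc-119, col-85, T04A8.8 and C49F5.5. Of the 28, 22 of the higher and all 3 lower features recur at the same 3 positions of a regular repeat in the feature numbers, so the count need not be one of separate signals. Feature 14023 measured 6.57, 6.15 and 8.76 sample means in AIN-2::GFP, 0.320, 0.183 and 0.333 in promoter GFP, and 5.55 and 6.36 in N2, so that AIN-2::GFP was like N2 and promoter GFP lay apart. Feature 1453 measured 0.0448, 0.0412 and 0.0565 in AIN-2::GFP and 1.16, 0.925 and 0.991 in promoter GFP, with 0.157 and 0.149 in N2. What these features hold is not known here, and no cause was tested.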

How the results depend on the processing

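The count of called genes was 1 with the deposited mean scaling, cyclic loess, a higher floor, no filter, all 20 samples or no dye term, and unc-119 passed in each. It was 0 with the 6 transgenic samples alone (unc-119 at -3.59, adjusted p = 0.154), where no N2 sample adds to the estimate of spread. With the replicate number as a fixed replicate block it was 0 (unc-119 at -3.52, adjusted p = 0.343), and with a random block 5. Leaving out any 1 replicate gave 0, with unc-119 between -3.60 and -3.46. Among settings added after seeing the data, leaving replicate 1, 2 or 3 out of both groups gave 0, 25 and 0 calls, with unc-119 at -3.40, -3.48 and -3.61. Without replicate 2 each transgenic group carries 1 dye, so that the dye term rests on the 2 N2 samples, and without a dye term the 25 calls became 0 (unc-119 at -3.80). All array features together gave 32 calls, among them col-85, T04A8.8 and C49F5.5. The cause of the other shifts was not tested. Over all settings unc-119 kept its direction, from -3.80 to -3.40. Under the alternatives not added after seeing the data, the 199 other named genes gave 2965 values, of which 0 reversed a call and 4 became calls, those with the random block. Of 465 list medians 80 moved by more than the spread, and mean scaling put the median of all features at 0.12. The alternatives for ain-2 were not run. Dim features were measured least precisely, as the wider intervals over all tested features show.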
